A study of Homo sapiens with 9 samples.

Results

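MV4;11 cells carrying the K148R substitution in MYC were compared with parental MV4;11 cells by RNA sequencing, 3 libraries against 3. These are 6 of the 9 libraries of the series, chosen by the genotype in their labels. MV4;11 is a human acute myeloid leukaemia line of monocytic type with a rearranged MLL (KMT2A) gene and an internal duplication in the receptor FLT3. Both groups were untreated and grown in RPMI medium, and the substitution in MYC is the only difference that the labels name. The sources used here do not say how it was introduced, whether the K148R cells descend from 1 clone, or whether replicate libraries stem from separate cultures. The p-values below therefore measure the spread between these libraries, which may be technical. Effects of the substitution cannot be told apart here from any other difference that arose between these cell populations.

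MYC is a transcription factor that binds DNA as a dimer with MAX, most often at the E box, and recruits coactivators such as the TRRAP complexes and the acetyltransferases EP300, KAT2A and KAT5. Its known programme includes ribosome assembly, nucleotide synthesis, metabolism and entry into S phase, and the MXD proteins and MNT compete with it for MAX. Acetyltransferases also modify lysines of MYC itself, with effects on its turnover and on its partners. Arginine keeps the positive charge of lysine but cannot be acetylated, so a lysine to arginine change is commonly used to remove an acetylation site. Gene counts do not show the substituted codon, so they cannot check the labels.

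The libraries held 13747087 to 18938391 counts. Levels are CPM, normalised counts scaled to the size of the library, given for each library or as mean ± SD of n = 3 libraries. They are shares of a library: total RNA per cell was not measured, and neither cell number nor the share of dividing cells is known. In such data fewer cells of a state and less RNA per cell cannot be told apart. A level is compared between groups for the same gene, never between genes, because CPM is not divided by gene length. Differences are log2 fold changes of K148R against parental cells from edgeR. Their standard errors were derived as the absolute log2 fold change over the square root of the test's F statistic. The words "rose", "fell" and "called" refer to a Benjamini-Hochberg adjusted p under 0.05. The adjustment was over all genes tested with edgeR's quasi-likelihood test. A gene passed the filter on low counts where at least 3 libraries, of either group, reached 0.607 CPM. It passed through a group where all 3 libraries of that group reached it, and some tested genes passed through neither group. Positions are on GRCh38. For every gene whose libraries are given one by one below, the 3 K148R libraries all lay above or all below the 3 parental ones.

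The difference between the genotypes was wide and nearly symmetric. Of 12722 genes tested, 10174 were called (80.0%). There were 5069 that rose (39.8%) and 5105 that fell (40.1%), and the median log2 fold change was -0.01. At 2-fold or more, 1831 genes were higher (14.4%) and 1886 lower (14.8%). At 4-fold or more the counts were 763 and 766. In 10313 genes (81.1%) the 3 libraries of one group all lay above those of the other. Separation of the groups is thus the common case, and it marks no gene out. The shares of all genes, 39.8% and 40.1%, are the ones to set beside every count of called list members below. The first principal component, which separated the genotypes, held 94.2% of the variance between libraries and the next one 1.9%. Genes that were at least 2-fold lower made up 12.02% of the parental counts and 3.61% of the K148R counts, while genes that were at least 2-fold higher went from 4.74% to 14.4%.

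**Figure D1:**
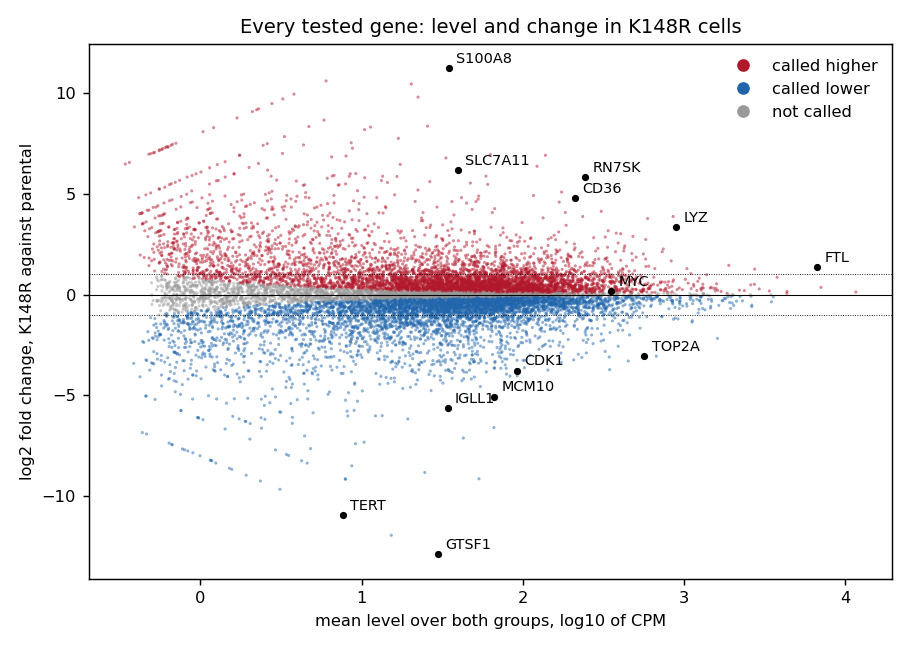
Log2 fold change of K148R against parental cells (vertical axis) over the mean level as log10 of CPM (horizontal axis), 1 point per tested gene. Called genes are coloured by direction, and 13 genes are labelled. Of 12722 genes, 5069 were called higher and 5105 lower, with CD36 and SLC7A11 far above the line of no change and MCM10, CDK1 and TOP2A far below it.

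MYC transcript itself was slightly higher. It stood at 334, 326 and 335 CPM in parental and 376, 375 and 372 CPM in K148R libraries (log2 fold change 0.17 ± 0.04 (SE), adjusted p = 4.7e-05). The groups did not overlap, but the rise was smaller than the median absolute log2 fold change of all genes, 0.578, and with a correction for GC content it was 0.08. Around MYC, 9 of 12 tested members of the MAX and MXD network rose and 2 fell, where 39.8% and 40.1% of all genes did, with a median of 0.78 (0.51 with the GC correction). Of those that rose, 4 encode repressive partners of MAX. MXD1, a repressor induced as myeloid cells mature, measured 9.67, 11.2 and 9.67 CPM in parental and 57.1, 59.1 and 63.3 CPM in K148R libraries (log2 fold change 2.56 ± 0.08 (SE), adjusted p = 8.6e-25). MXD4 rose from 41.6 ± 1.66 to 112 ± 4.75 CPM, MXI1 from 49.2 ± 4.47 to 94.2 ± 2.06 CPM and MNT from 23.2 ± 0.734 to 45.3 ± 5.41 CPM. MAX, the shared partner, rose from 80.4 ± 2.37 to 139.8 ± 6.44 CPM. MXD3, a family member that is expressed in dividing cells, fell from 13.6 ± 1.35 to 5.53 ± 0.89 CPM. MGA, a further MAX partner, had a log2 fold change of -0.12, a call that was lost under several other settings.

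The acetyltransferases, of which KAT2A, KAT5 and EP300 are known to act on MYC, moved in both directions: 7 of 14 rose and 6 fell, where 39.8% and 40.1% of all genes did. CREBBP and EP300, paralogous coactivators, were higher. CREBBP measured 46.4, 44.5 and 43.8 CPM in parental and 147, 144 and 147 CPM in K148R libraries (log2 fold change 1.70 ± 0.05 (SE), adjusted p = 1.5e-25), and EP300 rose from 129.9 ± 5.78 to 224 ± 12.1 CPM (log2 fold change 0.79, or 0.43 with the GC correction). The steroid receptor coactivators NCOA1 and NCOA3 rose by 1.84 and 1.18 on the log2 scale. KAT2A (GCN5) fell from 103 ± 1.52 to 67.3 ± 4.82 CPM, and KAT5 (TIP60) rose from 52.3 ± 1.5 to 63.8 ± 1.51 CPM. HAT1, which acetylates newly made histone H4, fell from 199 ± 2.05 to 62.8 ± 10.1 CPM. Of 17 deacetylases and sirtuins 7 rose and 8 fell, with log2 fold changes of -0.65 for HDAC2 and 0.79 for SIRT2. Among 17 cofactors and turnover factors of MYC 5 rose and 7 fell (3 and 13 with the GC correction). SKP2, an E3 ligase subunit that ubiquitinates MYC and the CDK inhibitor p27, measured 84.3, 85.7 and 85.5 CPM in parental and 13.1, 11.8 and 11.4 CPM in K148R libraries (log2 fold change -2.81 ± 0.07 (SE), adjusted p = 8.8e-28). The helicases RUVBL1 and RUVBL2, subunits of the TIP60 complex, had log2 fold changes of -1.74 and -1.04. TRRAP and EP400, large subunits of the same complex, had log2 fold changes of 0.14 (called, but -0.26 with the GC correction) and 0.02 (not called).

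Genes of DNA replication and division were mostly lower, apart from histone genes and some inhibitors of the kinases. Entry into S phase depends on E2F factors, which the RB proteins restrain and cyclin-dependent kinases release. MCM helicases are loaded at origins, and the MuvB complex with MYBL2 and FOXM1 then switches on genes of mitosis. All 26 tested licensing and helicase genes, all 27 polymerase, clamp and ligase genes and all 42 spindle and kinetochore genes fell, where 40.1% of all genes fell. Their median log2 fold changes were -2.88, -2.52 and -2.67.

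E2F1, the founding activator of the family, measured 64.8, 68 and 65.7 CPM in parental and 6.47, 8.72 and 5.59 CPM in K148R libraries (log2 fold change -3.27 ± 0.09 (SE), adjusted p = 9.0e-25). E2F8, an atypical repressor that is itself an E2F target, fell from 26.8 ± 1.68 to 1.54 ± 0.254 CPM, and MYBL2 from 266 ± 2.53 to 19.8 ± 1.63 CPM. Of 18 members of this list 15 fell. RB1 was the exception, at a log2 fold change of 0.39, and E2F6 and LIN37 were not called (0.11 and 0.17). Among cyclins and kinases 16 of 18 fell, 15 of them at least 2-fold. CDK1, the kinase of mitotic entry, stood at 168, 172 and 171 CPM in parental and 12.3, 11.3 and 13.4 CPM in K148R libraries (log2 fold change -3.79 ± 0.06 (SE), adjusted p = 6.4e-33). CDK2 fell from 86.3 ± 3.09 to 10.7 ± 1.06 CPM, CCNE2 from 53.3 ± 2.68 to 3.2 ± 0.837 CPM and CCND1 from 24.9 ± 1.39 to 1.47 ± 0.175 CPM. CDK4 and CDK6, partners of the D cyclins, had log2 fold changes of -1.29 and -1.17. CDC25A, the phosphatase that activates CDK2, fell from 80.7 ± 2.47 to 5.61 ± 0.932 CPM.

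The inhibitors of these kinases moved in both directions. CDKN1A (p21) measured 101, 104 and 98.8 CPM in parental and 378, 372 and 349.5 CPM in K148R libraries (log2 fold change 1.86 ± 0.04 (SE), adjusted p = 8.1e-29). CDKN1B (p27) rose from 78.5 ± 3.77 to 115 ± 3.09 CPM and CDKN1C (p57) from 2.54 ± 0.169 to 11.3 ± 0.647 CPM. CDKN2C (p18) fell from 38.8 ± 0.789 to 10.4 ± 1.33 CPM and CDKN2A from 60.6 ± 1.87 to 31.5 ± 1.06 CPM, whereas CDKN2B (p15) rose from 0.824 ± 0.0405 to 4.29 ± 0.724 CPM. CDKN2D (p19) had a log2 fold change of -0.27 (adjusted p = 0.0092), a call that was lost without K148R replicate 3.

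At the origin, CDC45 and the GINS complex join the MCM ring to form the active helicase. CDC45 stood at 82.4, 80.2 and 76.1 CPM in parental and 4.01, 4.63 and 3.68 CPM in K148R libraries (log2 fold change -4.28 ± 0.09 (SE), adjusted p = 4.3e-30). GINS1 fell from 94.6 ± 3.49 to 5.51 ± 0.34 CPM and CDC7, the kinase that fires origins, from 68.3 ± 3.86 to 4.68 ± 0.164 CPM. Among genes that act at the fork or behind it, CHAF1B, a histone chaperone subunit, fell from 58.6 ± 2.11 to 3.05 ± 0.796 CPM. POLE2 fell from 40.4 ± 2.82 to 2.77 ± 0.762 CPM and PRIM1, the primase catalytic subunit, from 109 ± 3.67 to 10.3 ± 0.622 CPM. The checkpoint mediator CLSPN fell from 111 ± 5.83 to 7.77 ± 0.982 CPM. In the polymerase list the ranges of the groups did not overlap for any member, where 81.1% of all genes showed no overlap. The kinesin KIF11, which separates spindle poles, fell from 182 ± 2.87 to 19 ± 1.85 CPM, the condensin subunit NCAPG from 135 ± 2.01 to 10.7 ± 1.88 CPM. The kinetochore subunits SPC24 and SPC25 had log2 fold changes of -3.91 and -3.70. All 42 spindle genes fell at least 2-fold, where 14.8% of all genes did, and 1 of the 42 passed the filter only through the parental libraries.

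The promoter of GINS2, from the licensing list, is printed from RefSeq (GRCh38.p14) because it holds an E2F element, a feature that was common in that list. The sequence is the 250 bases before the start site, 5′ to 3′ on the gene's strand, and capitals mark the element.
GINS2, chr16:85688955-85689204, minus strand: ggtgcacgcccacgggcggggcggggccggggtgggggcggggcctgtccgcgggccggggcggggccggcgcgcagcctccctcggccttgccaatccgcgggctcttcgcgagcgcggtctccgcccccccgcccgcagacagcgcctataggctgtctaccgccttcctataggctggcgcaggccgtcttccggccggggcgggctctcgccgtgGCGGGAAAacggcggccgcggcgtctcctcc
E2F elements were searched as TTTGGCGC, TTTCCCGC or TTTCGCGC on both strands of the window from 250 bases before to 50 after the start site. They were found at 11 of 22 licensing genes with a promoter in the table, 8 of 24 polymerase genes and 6 of 16 genes of the E2F list, against 2.79% of all promoters. Of spindle genes 1 of 38 held an E2F element, while 27 of 38 held the CHR element (TTTGAA), where MuvB is known to bind, and 27 of 38 held CCAAT, the NF-Y element. A CHR element was found at 1 of 22 licensing genes. Among all promoters 15.4% held a CHR element and 35.7% CCAAT. Of tested genes that were under 2-fold or not called 4.28% held an E2F element, 8.2% CHR and 36.6% CCAAT. None of the elements searched here contains another. These matches describe letters in a window and not binding.

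Genes of DNA repair were lower too. In homologous recombination and the Fanconi pathway 25 of 27 genes fell, 23 at least 2-fold, where 40.1% and 14.8% of all genes did. Of the 26 that passed the filter in both groups 24 fell. XRCC2, which takes part in strand exchange, measured 29.3, 27.6 and 26.6 CPM in parental and 0.91, 1.94 and 1.17 CPM in K148R libraries (log2 fold change -4.40 ± 0.15 (SE), adjusted p = 1.3e-23). The helicase BLM fell from 146 ± 3.43 to 11.5 ± 1.03 CPM, and BRCA1 from 186 ± 5.48 to 19.4 ± 1.49 CPM. MUS81 was not called (0.04). Of end joining genes and checkpoint kinases, taken as 1 list, 14 of 16 fell, with a median of -1.03. PRKDC, the DNA-dependent kinase, fell from 1617 ± 48.5 to 627 ± 9.53 CPM, while the ligase LIG4 was not called (0.09). Of the kinases of the replication checkpoint CHEK1 fell from 90.9 ± 1.91 to 4.96 ± 0.626 CPM and CHEK2 from 72.6 ± 0.678 to 17.4 ± 0.948 CPM.

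**Figure D2:**
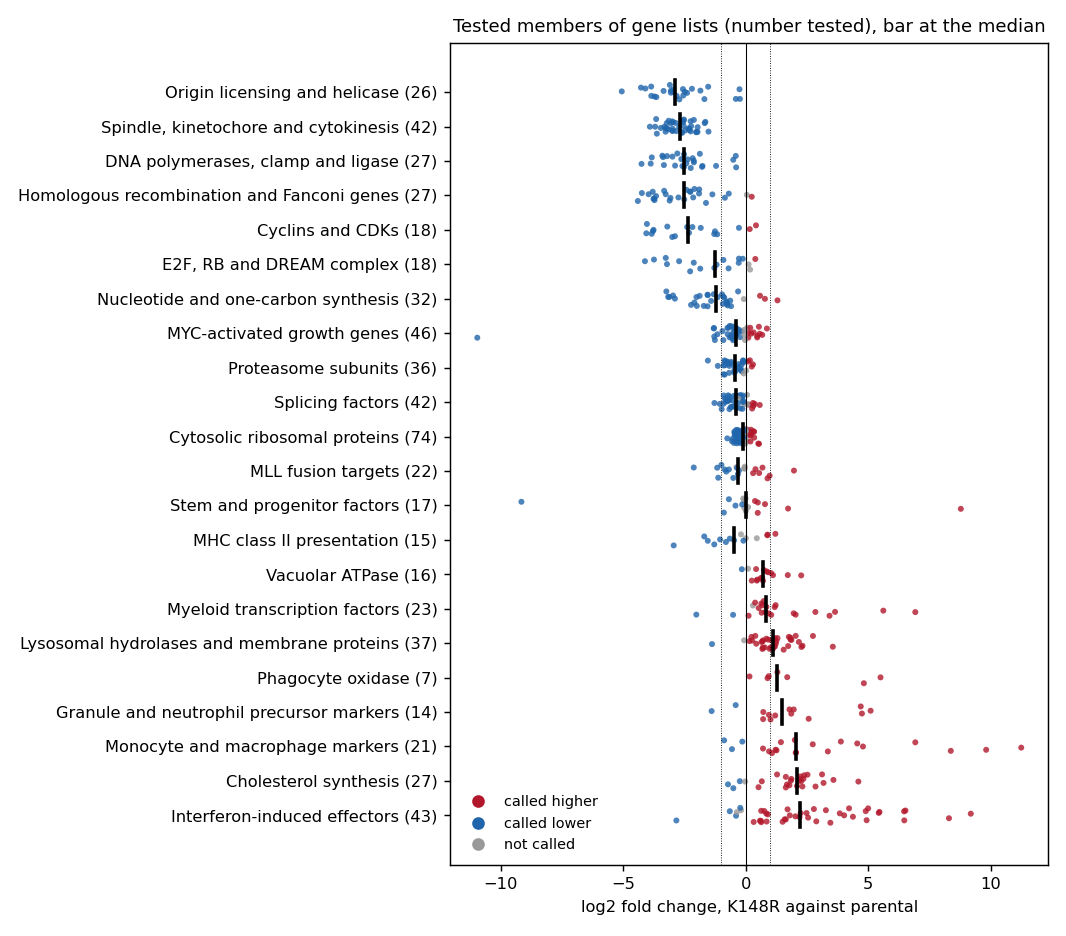
Log2 fold change of K148R against parental cells (horizontal axis) for the tested members of 22 gene lists, 1 point per gene, with a bar at each list's median. All tested members of the licensing, polymerase and spindle lists lie left of 0, and most members of the lysosome, interferon effector and monocyte lists lie right of it.

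Genes of growth arrest and cell death are given one by one. The antiproliferative gene BTG2 measured 29.4, 29.6 and 29.4 CPM in parental and 155, 160.1 and 153 CPM in K148R libraries (log2 fold change 2.40 ± 0.05 (SE), adjusted p = 2.9e-29). PLK2, a kinase induced by stress, rose from 12.1 ± 0.443 to 37.2 ± 2.67 CPM. SPATA18 had 0 counts in all parental libraries and 6.58, 6.37 and 6.51 CPM in K148R libraries, at least 103-fold higher against a floor of 3 counts over the group. CCNG1, cyclin G1, fell from 237 ± 1.63 to 76.1 ± 15.9 CPM. BAX, TNFRSF10B and AEN, at log2 fold changes of -0.08, -0.08 and -0.09, were not called. Of 13 BCL2 relatives 7 rose and 4 fell, where 39.8% and 40.1% of all genes did. BCL2 itself fell from 244 ± 5.07 to 140.4 ± 4.27 CPM, whereas the survival factor BCL2L1 rose from 27 ± 1.6 to 50.6 ± 2.04 CPM and the BH3-only gene BMF from 93.2 ± 5.21 to 215 ± 11.8 CPM. Of 17 caspases and their inhibitors 6 rose and 8 fell, with log2 fold changes of 1.23 for CASP1 and 1.04 for CASP9.

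Genes of growth, the best known targets of MYC, were mostly lower, with medians nearer 0 than those of the replication and spindle lists. Of 46 growth genes taken as typical MYC targets 31 fell, 11 rose and 4 were not called, with a median of -0.42. Of the 45 that passed the filter in both groups 30 fell and 11 rose. The mitochondrial chaperonin HSPD1 measured 1611, 1620.0 and 1573 CPM in parental and 619, 661 and 676 CPM in K148R libraries (log2 fold change -1.30 ± 0.03 (SE), adjusted p = 3.1e-27), and its partner HSPE1 fell from 115 ± 4.83 to 47.8 ± 8.99 CPM. LDHA, lactate dehydrogenase A, fell from 1221 ± 16 to 546 ± 14 CPM, and CAD, which starts pyrimidine synthesis, from 254 ± 2.82 to 102 ± 4.81 CPM. The nucleolar protein NCL had a log2 fold change of -0.54, and EIF4E, which binds the mRNA cap, -0.75. TFRC, NOB1 and RRP12 were not called (-0.03, 0.06 and -0.08). An E box (CACGTG) was found at 18 of 39 of these growth genes with a promoter in the table, against 7.43% of all promoters. Of tested genes that were under 2-fold or not called 10.8% held it.

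Transcripts of cytosolic ribosomal proteins all changed by less than 2-fold. Cytosolic ribosomal protein genes were lower in 44 of 74 cases and higher in 13, with a median of -0.13. With a correction for GC content these counts were 33 and 23 and the median -0.03. RPSA had a log2 fold change of -0.75, and RPL10 and RPS19 rose by 0.54 and 0.51 on the log2 scale. RPL5 had a log2 fold change of -0.54, but 0.05 with the GC correction. Mitochondrial ribosomal proteins were lower in 46 of 69 and higher in 5 (44 and 12 with the GC correction), with a median of -0.36 (-0.23 with it). MRPL42 fell from 81.4 ± 4.1 to 22 ± 0.613 CPM. For RNA polymerases I and III 11 of 28 genes rose and as many fell, shares near the 39.8% and 40.1% of all genes. POLR3G, the polymerase III subunit of undifferentiated cells, fell from 9.32 ± 0.774 to 1.45 ± 0.45 CPM. Of 20 tRNA synthetases 14 fell. FARSB had a log2 fold change of -1.68, and WARS, which interferon is known to induce, one of 1.01. Of 41 translation factors 24 fell and 12 rose. EEF1E1 fell from 16.7 ± 1.38 to 2.8 ± 1.96 CPM, and EIF4G1 rose from 647 ± 12.2 to 1074 ± 39.4 CPM.

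Nucleotide synthesis was lower in 28 of 32 genes, 17 at least 2-fold. PAICS, a purine enzyme, measured 746, 736 and 724 CPM in parental and 178, 184 and 190.3 CPM in K148R libraries (log2 fold change -2.0 ± 0.04 (SE), adjusted p = 1.8e-31). RRM2, the ribonucleotide reductase subunit made in S phase, fell from 304 ± 5.64 to 33.9 ± 2.72 CPM, and thymidine kinase TK1 from 149 ± 5.29 to 19 ± 1.73 CPM. Of the proteasome 30 of 36 subunits fell, with a median of -0.44 (-0.27 with the GC correction). PSMB9 and PSME2, which interferon is known to induce, had log2 fold changes of -1.55 and -1.14. Of splicing factors 32 of 42 fell, with a median of -0.40. Log2 fold changes were -0.91 for HNRNPA2B1 and -1.28 for SNRPE. HNRNPA1 and SF3B1 were not called (-0.06 and 0.07).

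Of 31 glycolytic and pentose phosphate genes 12 rose, a share near the 39.8% of all genes, and 16 fell. PGD, an enzyme of the oxidative pentose phosphate branch, which yields NADPH, measured 338, 323 and 328 CPM in parental and 876, 891 and 869 CPM in K148R libraries (log2 fold change 1.41 ± 0.03 (SE), adjusted p = 3.4e-28). Among glycolytic genes ENO2 fell from 13.7 ± 0.699 to 2.32 ± 0.516 CPM, PFKP from 197 ± 3.03 to 61.9 ± 3.2 CPM and LDHB from 1205 ± 28.7 to 516 ± 9.58 CPM, while GAPDH was not called (0.00). In the citric acid cycle 17 of 24 genes fell. IDH2 fell from 379 ± 3.63 to 112 ± 4.7 CPM and SUCLG2 from 74.6 ± 0.676 to 17.3 ± 2.87 CPM, but PC, which feeds the cycle with oxaloacetate, rose from 5.38 ± 0.597 to 19 ± 1.07 CPM. Of 68 oxidative phosphorylation genes 40 fell and 9 rose, with a median of -0.17 (34, 18 and -0.09 with the GC correction).

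Genes of sterol synthesis were higher. SREBP2, encoded by SREBF2, is held in the endoplasmic reticulum by SCAP and INSIG1 when sterols are plentiful, and otherwise enters the nucleus and switches on the pathway. Of 27 tested genes 23 rose, 21 at least 2-fold, and 3 fell, against 14.4% of all genes at least 2-fold higher. The median log2 fold change was 2.09. LSS, lanosterol synthase, measured 15.5, 14.6 and 15.8 CPM in parental and 191, 180.4 and 177 CPM in K148R libraries (log2 fold change 3.58 ± 0.06 (SE), adjusted p = 1.0e-32), and HMGCS1, an early enzyme of the pathway, rose from 34.6 ± 1.53 to 299.6 ± 23.1 CPM. INSIG1, itself a target of SREBP2, stood at 63.2, 68.9 and 70.8 CPM in parental and 595, 605 and 629 CPM in K148R libraries (log2 fold change 3.17 ± 0.04 (SE), adjusted p = 7.5e-35). SREBF2 rose from 143 ± 5.65 to 708 ± 15.3 CPM and SREBF1, its relative with a larger role in fatty acid synthesis, from 62.2 ± 1.09 to 226 ± 11.4 CPM. FDPS was not called (-0.03).

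The promoter of SREBF2 is printed from RefSeq (GRCh38.p14) as the 250 bases before the start site, because the factor's own gene holds a sterol regulatory element, marked in capitals.
SREBF2, chr22:41832855-41833104, plus strand: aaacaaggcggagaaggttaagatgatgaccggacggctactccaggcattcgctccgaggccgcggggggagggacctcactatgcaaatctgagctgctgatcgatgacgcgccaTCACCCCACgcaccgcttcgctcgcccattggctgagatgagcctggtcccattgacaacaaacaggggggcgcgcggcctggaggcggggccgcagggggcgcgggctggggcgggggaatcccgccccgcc
The element was searched as TCACCCCAC on both strands. It was found at 1 of 21 sterol genes with a promoter in the table, which was SREBF2, and at 0.42% of all promoters.

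Fatty acid genes moved in both directions. Of 16 genes 10 rose and 4 fell, where 39.8% and 40.1% of all genes did. The desaturase SCD measured 120.1, 108 and 115 CPM in parental and 822, 862 and 866 CPM in K148R libraries (log2 fold change 2.89 ± 0.04 (SE), adjusted p = 1.1e-34). FADS2 and FADS1, which desaturate polyunsaturated fatty acids, rose from 31.2 ± 1.59 to 340.0 ± 5.49 CPM and from 66.5 ± 2.87 to 205 ± 8.82 CPM, whereas ACSL5, a fatty acid activating enzyme, fell from 53.5 ± 1.26 to 9.5 ± 1.41 CPM. Genes of lipid uptake and export moved in both directions too. The scavenger receptor CD36 measured 14.4, 15.4 and 14.6 CPM in parental and 370.4, 401 and 450.0 CPM in K148R libraries (log2 fold change 4.78 ± 0.07 (SE), adjusted p = 3.9e-25), and ABCA1, which exports cholesterol, rose from 19.6 ± 1.49 to 69.6 ± 2.2 CPM. The lipid droplet protein PLIN2 fell from 42 ± 1.31 to 3.71 ± 0.401 CPM and the apolipoprotein APOC1 from 30.4 ± 1.81 to 1.51 ± 0.153 CPM. NR1H3, a sterol receptor that controls ABCA1, was not called (-0.32).

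Of 37 lysosomal genes 35 rose, 21 of them at least 2-fold, with a median of 1.10, and of the 36 that passed the filter in both groups 34 rose and 1 fell. PSAP, the precursor of the saposins that help to degrade sphingolipids, measured 146, 152 and 154 CPM in parental and 1034, 1008 and 983 CPM in K148R libraries (log2 fold change 2.74 ± 0.04 (SE), adjusted p = 4.3e-35). GRN, progranulin, rose from 256 ± 3.62 to 1233 ± 67.8 CPM, the protease CTSD from 218 ± 2.51 to 791 ± 43.5 CPM, the sialidase NEU1 from 27.2 ± 0.468 to 135 ± 5.99 CPM and CTSA from 103 ± 4.48 to 463 ± 18.2 CPM. LAMP2 was not called (-0.07), and GUSB, beta-glucuronidase, fell by 1.38 on the log2 scale. Of 16 subunits of the proton pump that acidifies lysosomes 14 rose, ATP6V0A1 from 23.4 ± 0.634 to 112 ± 6.33 CPM and ATP6AP1 from 88.5 ± 2.16 to 290.2 ± 3.12 CPM. TFEB and TFE3 are known to switch on these genes. TFE3 rose from 31.7 ± 2.32 to 82.3 ± 5.29 CPM and TFEB from 17.6 ± 0.968 to 23.6 ± 1.91 CPM. Of 25 autophagy genes 17 rose, the receptor SQSTM1 from 134 ± 3.33 to 458 ± 23.3 CPM and GABARAPL1 from 3.82 ± 0.409 to 23.9 ± 0.252 CPM, while the receptor OPTN fell from 26.4 ± 0.66 to 11.5 ± 0.127 CPM.

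Among stress genes, SLC7A11, the cystine importer controlled by ATF4 and NRF2, measured 1.44, 0.933 and 0.831 CPM in parental and 72.8, 75.4 and 87 CPM in K148R libraries (log2 fold change 6.18 ± 0.13 (SE), adjusted p = 1.1e-28). PPP1R15A (GADD34), the phosphatase subunit that ends the integrated stress response, rose from 37 ± 0.444 to 263 ± 26.1 CPM and ATF3 from 2.02 ± 0.208 to 18.8 ± 0.546 CPM. The serine synthesis enzyme PHGDH, another ATF4 target, fell from 19.8 ± 0.603 to 5.13 ± 0.503 CPM, and ASNS was not called (-0.16). Of 25 members of this response 16 rose and 7 fell. For NRF2 and iron 9 of 23 rose, a share near the 39.8% of all genes, and 7 fell. Ferritin light chain FTL had the largest gain in CPM of all genes, 3828, 3702 and 3823 CPM in parental and 9993, 9812 and 9082 CPM in K148R libraries, and HMOX1, heme oxygenase, rose from 2.31 ± 0.255 to 12.3 ± 0.753 CPM, but the peroxiredoxin PRDX1 fell from 601 ± 10.3 to 207 ± 5.08 CPM. Of 31 heat shock and unfolded protein genes 21 rose and 9 fell. The chaperone of the endoplasmic reticulum HSPA5 (BiP) rose from 899 ± 12 to 1588 ± 32.9 CPM, CRELD2 from 26.6 ± 3.21 to 63.3 ± 1.21 CPM and EDEM1 from 149 ± 2.9 to 332 ± 13.2 CPM, while XBP1 fell from 593 ± 3.18 to 299 ± 3.93 CPM and the cytosolic HSPB1 from 121 ± 3.0 to 48.4 ± 1.16 CPM.

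**Figure D3:**
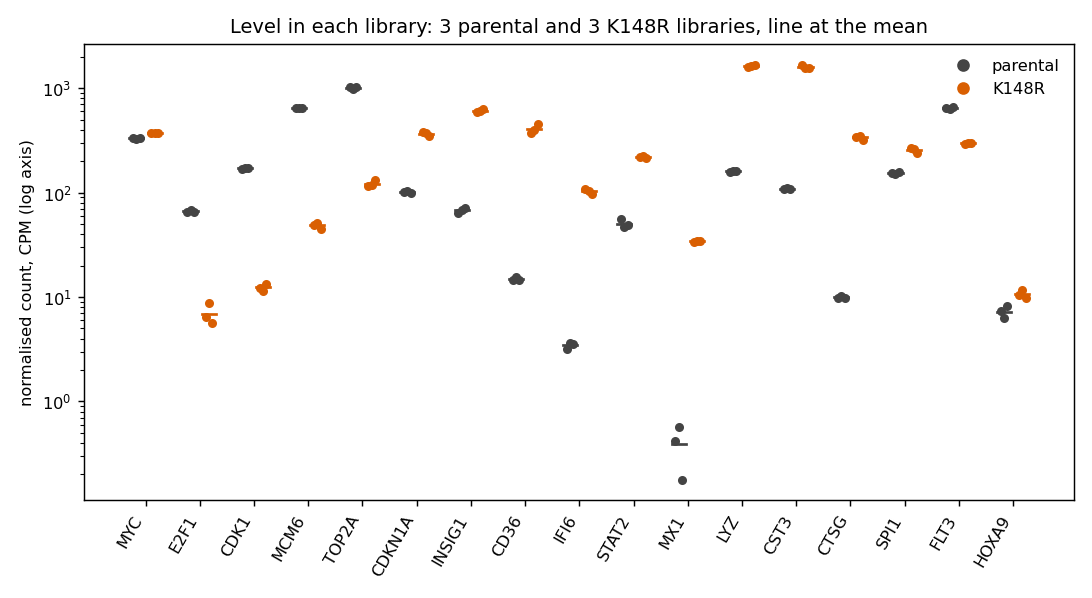
Level in CPM on a log axis of 17 genes in each of the 3 parental and 3 K148R libraries, 1 point per library. E2F1, CDK1, MCM6 and TOP2A lie lower in every K148R library, INSIG1, CD36, IFI6, STAT2, LYZ, CST3 and CTSG lie higher, and MYC differs little.

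Interferon response genes were mostly higher, from sensors to effectors. Type I interferon signals through JAK1 and TYK2 to a complex that holds STAT2 and IRF9 and binds the interferon-stimulated response element. STAT2 measured 55.4, 47.2 and 48.8 CPM in parental and 221, 224 and 217 CPM in K148R libraries (log2 fold change 2.13 ± 0.05 (SE), adjusted p = 3.5e-28). IRF9 rose from 10.1 ± 1.08 to 64.1 ± 1.71 CPM, JAK1 from 124 ± 4.73 to 267 ± 7.91 CPM, and IRF7, which amplifies the response, from 12.1 ± 0.971 to 50.4 ± 2.94 CPM. Of 27 genes of sensing and signalling 20 rose and 2 fell, where 39.8% and 40.1% of all genes did. Of the 25 that passed the filter in both groups 18 rose and 2 fell. The receptor chain IFNAR2 and the sensor MB21D1 (cGAS) were not called (0.01 and 0.08).

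Of 43 tested effectors 37 rose and 4 fell, where 39.8% and 40.1% of all genes did. The list's median was 2.19. Of the tested effectors, 15 reached the low-count filter only through the K148R libraries, which favours a rise. Of the 28 that reached it in both groups 22 rose and 4 fell. IFI6, an antiviral protein of mitochondria and endoplasmic reticulum, measured 3.18, 3.66 and 3.56 CPM in parental and 108, 103 and 97.7 CPM in K148R libraries (log2 fold change 4.89 ± 0.09 (SE), adjusted p = 6.4e-32). OAS2, a synthetase of the RNase L activator, rose from 4.46 ± 0.819 to 49.2 ± 3.07 CPM, OAS1 from 0.318 ± 0.24 to 14.2 ± 0.594 CPM, the ubiquitin-like ISG15 from 10.3 ± 1.31 to 57.6 ± 2.28 CPM and SAMD9L from 1.27 ± 0.233 to 26.8 ± 2.74 CPM. OAS3 had 0 counts in parental cells and 4.33, 4.02 and 5.04 CPM in K148R libraries, at least 70.7-fold higher. Exceptions were IFITM3 and RTP4, which were not called (-0.19 and -0.37), and GBP4, which fell by 2.83 on the log2 scale.

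The promoter of IFI6 is printed from RefSeq (GRCh38.p14) as the 250 bases before its start site, because it holds the response element 3 times, in capitals.
IFI6, chr1:27672193-27672442, minus strand: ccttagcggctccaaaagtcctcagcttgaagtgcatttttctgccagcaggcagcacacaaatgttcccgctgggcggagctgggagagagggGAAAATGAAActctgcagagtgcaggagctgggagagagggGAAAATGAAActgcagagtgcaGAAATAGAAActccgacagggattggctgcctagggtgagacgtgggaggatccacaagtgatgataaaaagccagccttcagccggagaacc
The element, searched as GAAA, any 2 bases and GAAA on both strands, was found at 25 of 36 effectors with a promoter in the table and 3.65% of all promoters. It was found at 7 of 15 MHC class I genes and 0 of 13 class II genes.

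In antigen presentation most class I genes were higher and most class II genes were lower. Of 19 class I genes 12 rose and 5 fell, where 39.8% and 40.1% of all genes did. B2M, the light chain of class I molecules, measured 933, 932 and 913 CPM in parental and 1702, 1908 and 1902 CPM in K148R libraries (log2 fold change 0.99 ± 0.04 (SE), adjusted p = 2.6e-21), and HLA-B rose from 666 ± 11.6 to 1040.4 ± 32.7 CPM and HLA-C from 308 ± 5.84 to 517 ± 28.5 CPM. The peptide transporter TAP1 rose from 23.7 ± 0.475 to 47.4 ± 2.66 CPM, but ERAP2, which trims peptides, fell from 23.2 ± 0.89 to 5.85 ± 0.631 CPM. Of 15 class II genes 9 fell and 3 rose, and of the 13 that passed the filter in both groups 8 fell and 3 rose. HLA-DRA fell from 313 ± 7.65 to 199 ± 3.35 CPM and HLA-DRB1 from 104 ± 2.23 to 50.4 ± 1.84 CPM. HLA-DMA, which edits the peptides bound to class II, rose from 28.1 ± 1.41 to 64.8 ± 6.36 CPM. CIITA, the coactivator that controls class II genes, measured 42.3 ± 1.71 CPM in parental and 42.2 ± 5.29 CPM in K148R cells and was not called (log2 fold change 0.00). Reads of the HLA-DRB genes may be split between near-identical copies.

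Inflammatory genes rose in several families. Of 23 pattern receptors and inflammasome genes 16 rose and 3 fell, where 39.8% and 40.1% of all genes did. Of the 23, 6 passed the filter only through the K148R libraries. Of the 15 that passed the filter in both groups 10 rose and 2 fell. NAIP, an inflammasome receptor for bacterial flagellin, measured 2.4, 2.44 and 3.62 CPM in parental and 85.9, 67.3 and 56.3 CPM in K148R libraries (log2 fold change 4.62 ± 0.27 (SE), adjusted p = 1.1e-05). TLR4, the lipopolysaccharide receptor, rose from 9.34 ± 0.246 to 49.6 ± 7.05 CPM, NOD2 from 21.6 ± 1.47 to 94.4 ± 4.13 CPM and the adaptor MYD88 from 47.4 ± 1.1 to 177 ± 2.84 CPM. Among cytokines 15 of 20 rose, and of the 18 that passed the filter in both groups 14 rose and 4 fell. CCL2, which attracts monocytes, measured 1.32, 1.08 and 1.13 CPM in parental and 43.7, 42.9 and 44.1 CPM in K148R libraries (log2 fold change 5.20 ± 0.13 (SE), adjusted p = 3.4e-28). CXCL8 rose from 5.41 ± 0.639 to 66.3 ± 4.53 CPM, IL1B from 1.36 ± 0.131 to 26.9 ± 1.38 CPM and the B cell survival factor TNFSF13B from 4.87 ± 0.302 to 92.1 ± 6.23 CPM. In the NF-kappaB pathway 15 of 21 rose, with a median of 0.36 (0.16 with the GC correction). NFKB1 rose from 37.9 ± 2.49 to 80.04 ± 2.96 CPM and BCL3 from 10.6 ± 0.295 to 37.6 ± 2.01 CPM, and REL fell from 22 ± 0.974 to 12.5 ± 2.03 CPM. Among immediate early factors 19 of 24 rose, and of the 21 that passed the filter in both groups 16 rose and 4 fell. JUN measured 1.02, 1.08 and 1.07 CPM in parental and 53.3, 50.4 and 52 CPM in K148R libraries (log2 fold change 5.61 ± 0.12 (SE), adjusted p = 1.9e-29), and FOSB rose from 1.24 ± 0.176 to 20.3 ± 1.09 CPM.

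Effector genes of phagocytes were higher as well. All 7 subunits of the phagocyte oxidase rose, 1 of which, CYBB, passed the filter only through the K148R libraries. CYBB, the catalytic chain, measured 0.36, 0.144 and 0.475 CPM in parental and 15, 14.1 and 17.6 CPM in K148R libraries (log2 fold change 5.50 ± 0.23 (SE), adjusted p = 2.1e-21). RAC1, which many cells express, rose by 0.15 on the log2 scale. Of 16 Fc receptors and their signalling partners 12 rose, 11 of them at least 2-fold, where 39.8% and 14.4% of all genes did. Of the 14 that passed the filter in both groups 10 rose and 2 fell. The adaptor TYROBP measured 78.9, 79.1 and 77.8 CPM in parental and 587, 586 and 540.2 CPM in K148R libraries (log2 fold change 2.86 ± 0.04 (SE), adjusted p = 4.1e-34), FCGR2A rose from 22 ± 1.69 to 96.9 ± 1.39 CPM, FCGR2B from 0.837 ± 0.162 to 24 ± 1.02 CPM, and the kinase SYK from 136 ± 2.36 to 410.1 ± 5.63 CPM. BTK was not called (-0.04). Reads of NAIP, NCF1 and FCGR2B may be shared with near-identical copies. Of 19 genes of complement and phagocytosis signals 17 rose and none was called lower, and of the 14 that passed the filter in both groups 13 rose. CD59, which blocks the membrane attack complex and passed only through the K148R libraries, measured 1.38, 1.08 and 0.534 CPM in parental and 115, 128 and 131 CPM in K148R libraries (log2 fold change 6.96 ± 0.12 (SE), adjusted p = 7.2e-30). Complement factor D (CFD) rose from 113 ± 4.2 to 668 ± 25 CPM, properdin (CFP) from 36 ± 0.825 to 277 ± 15 CPM and SIRPA, the receptor for CD47, from 129 ± 7.05 to 432 ± 11.8 CPM.

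Markers of monocytes and of granulocyte precursors rose together, but not every defining marker was present. Of 31 monocyte and macrophage markers 21 passed the filter, 4 of them only through the K148R libraries. Of those tested 18 rose and 3 fell, and of the 17 that passed in both groups 14 rose and 3 fell. CST3, cystatin C, measured 108, 109.6 and 109 CPM in parental and 1681, 1569.6 and 1563 CPM in K148R libraries (log2 fold change 3.88 ± 0.04 (SE), adjusted p = 2.3e-38). CSF1R, the receptor for macrophage colony-stimulating factor, rose from 40.02 ± 3.21 to 166 ± 3.64 CPM and TYMP, thymidine phosphorylase, from 41.8 ± 1.17 to 278 ± 17.3 CPM. S100A9, a calcium-binding protein of neutrophils and monocytes, measured 0.18, 0.0718 and 0.178 CPM in parental and 53.2, 48.9 and 51.4 CPM in K148R libraries. CD14, the co-receptor for lipopolysaccharide, did not pass the filter, with 6 counts over the parental and 17 over the K148R libraries. CD163, a scavenger receptor of macrophages, had 0 and 6 counts, FCN1 had 0 and 8, and MRC1 had none.

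Granule genes rose in 12 of 14 cases, and of the 13 that passed the filter in both groups 11 rose and 2 fell. CTSG, cathepsin G, measured 9.73, 10.2 and 9.79 CPM in parental and 344, 348 and 323 CPM in K148R libraries (log2 fold change 5.09 ± 0.06 (SE), adjusted p = 4.8e-37), and neutrophil elastase, ELANE, rose from 3.8 ± 0.622 to 102 ± 7.05 CPM. MS4A3, a marker of granulocyte and monocyte progenitors, rose from 58.2 ± 0.494 to 226 ± 12.5 CPM. MPO, myeloperoxidase, fell by 1.39 on the log2 scale. Of 23 myeloid transcription factors 20 rose, and of the 20 that passed the filter in both groups 17 rose and 2 fell. SPI1 (PU.1), the master regulator of the lineage, rose from 155 ± 2.25 to 257 ± 17.3 CPM and CEBPA from 272 ± 5.14 to 423 ± 13.3 CPM, at log2 fold changes of 0.73 and 0.64. NFIL3 and NFE2, further factors of the list, had 1.95 and 2.03. CEBPE, a factor of late granulocytes, was not called (0.29).

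Markers of other lineages showed no common direction, and several defining ones were absent. Of 19 T, NK and B cell markers 8 passed the filter, 3 rose and 5 fell. CD3E, MS4A1, VPREB1, EBF1 and DNTT had 0 counts in all 6 libraries. The list's summed level went from 349 to 769.6 CPM, most of it from CD4, which monocytes also express and which rose from 225 ± 11.9 to 734 ± 21.8 CPM. IGLL1, the surrogate light chain of early B cells, measured 66.6, 69.2 and 65.3 CPM in parental and 0.963, 2.15 and 0.983 CPM in K148R libraries (log2 fold change -5.65 ± 0.13 (SE), adjusted p = 1.8e-27). Of 19 erythroid and megakaryocyte markers 3 passed the filter, of which 1 rose and 2 fell. The list's summed level was 27.4 CPM in parental and 26.7 CPM in K148R cells. AHSP and PF4 were at 0 counts. Of 12 mast cell, basophil and eosinophil markers 2 passed, of which 1 rose and 1 fell, with CPA3, CLC and HPGDS at 0. FCER1A, which dendritic cells express too, rose from 0.582 ± 0.225 to 28.4 ± 2.12 CPM, and the other tested member had a log2 fold change of -2.50. Of 14 fibroblast, epithelial and endothelial markers 5 passed, of which 2 rose and 2 fell, with a median of 2.32. Of the 5, 3 passed only through the K148R libraries, which favours a rise, and 1 only through the parental ones. The 1 that passed in both groups fell. The list's sum went from 28.8 to 10.1 CPM, with EPCAM at 0 counts. Those that fell were the keratins KRT18 and KRT8, at log2 fold changes of -6.03 and -2.69. Of 13 dendritic cell markers 6 passed the filter, of which 3 rose and 3 fell. CLEC10A rose from 20.01 ± 0.883 to 104 ± 5.49 CPM and TCF4 from 19.7 ± 0.971 to 84.2 ± 3.19 CPM, BATF3 fell from 3.2 ± 0.286 to 0.777 ± 0.0686 CPM, and XCR1 was at 0.

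Genes controlled by the MLL fusion changed unevenly. Rearranged MLL keeps HOXA genes and MEIS1 active, together with FLT3, MEF2C and CDK6. Of 22 tested genes 11 fell and 7 rose, where 40.1% and 39.8% of all genes did. MEF2C measured 158, 161 and 161 CPM in parental and 37.1, 32.4 and 40.7 CPM in K148R libraries (log2 fold change -2.12 ± 0.06 (SE), adjusted p = 1.1e-25), and FLT3 fell from 649 ± 9.19 to 298 ± 3.03 CPM. MEIS1 fell from 75.4 ± 2.05 to 59 ± 0.146 CPM, whereas HOXA9 rose from 7.23 ± 0.973 to 10.6 ± 0.922 CPM. MYB, RUNX1, IKZF1 and CPEB2 were not called (-0.07, -0.01, -0.06 and -0.04). KMT2A itself rose from 134 ± 6.05 to 177 ± 6.62 CPM, and 15 of 24 menin, DOT1L and elongation partners rose. HEXIM1, the inhibitor of the elongation kinase CDK9, rose from 45.4 ± 1.84 to 108 ± 6.22 CPM, and PSIP1, which tethers menin complexes to chromatin, fell from 120.1 ± 6.23 to 44.2 ± 1.66 CPM. Of 17 stem and progenitor factors 6 rose and 5 fell (7 and 9 with the GC correction). Their log2 fold changes ran from -9.16 to 8.78, with a median of -0.01. Of the 14 that passed the filter in both groups 4 rose and 4 fell. The largest rise was that of HLF, which had 0 counts in all parental libraries. KIT fell from 32 ± 3.7 to 17.2 ± 2.93 CPM and LMO2 from 223 ± 5.58 to 138 ± 4.42 CPM.

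Of 29 Polycomb and DNA methylation genes 14 fell, 12 at least 2-fold, and 10 rose. Of the 27 that passed the filter in both groups 12 fell and 10 rose. Of all genes 40.1% fell, 14.8% at least 2-fold, and 39.8% rose. UHRF1, which brings the maintenance methyltransferase to replicated DNA, measured 313, 312 and 321 CPM in parental and 31.8, 32 and 28.1 CPM in K148R libraries (log2 fold change -3.36 ± 0.05 (SE), adjusted p = 5.7e-34). DNMT1 fell from 602 ± 15.2 to 248.7 ± 6.12 CPM, EZH2, the histone methyltransferase of Polycomb complex 2, from 93.8 ± 2.96 to 28.5 ± 1.14 CPM and PHF19 from 72.5 ± 4.95 to 19.9 ± 2.08 CPM. ASXL1 and JARID2 were not called (0.05 and 0.10). Telomerase and shelterin genes fell in 9 of 14 cases and rose in 2, where 40.1% and 39.8% of all genes did. Of the 13 that passed the filter in both groups 8 fell and 2 rose. The remaining member, TERT, passed it only through the parental libraries, which favours a fall. TERT, the catalytic subunit, had 15.1, 15.7 and 15.1 CPM in parental libraries and 0 counts in K148R libraries, at least 254-fold lower. POT1 and ACD had log2 fold changes of -1.11 and -1.14, and CTC1 was not called (0.00).

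Among receptors of growth factors and cytokines 17 of 25 rose and 7 fell, where 39.8% and 40.1% of all genes did. Of the 22 that passed the filter in both groups 16 rose and 5 fell. RET passed it only through the parental libraries, which favours a fall. IL6R rose from 61.1 ± 2.02 to 268 ± 8.81 CPM, IL10RA from 10.7 ± 0.453 to 44.1 ± 1.62 CPM and TGFBR2 from 55.9 ± 1.36 to 193 ± 6.5 CPM. RET, a receptor tyrosine kinase, measured 15.2, 16.9 and 15.9 CPM in parental and 0.214, 0.201 and 0.43 CPM in K148R libraries (log2 fold change -5.79 ± 0.22 (SE), adjusted p = 2.1e-22). The integrin chain ITGB7 rose from 29.97 ± 1.3 to 441 ± 7.57 CPM, while ITGA4, with which it pairs, fell from 281 ± 3.82 to 74.3 ± 5.74 CPM and ITGA6 from 10.7 ± 0.361 to 1.26 ± 0.267 CPM. Of 14 surface proteins that are targets of leukaemia therapies 11 rose and 2 fell, with log2 fold changes from -9.16 to 9.81. Of the 9 that passed the filter in both groups 7 rose and 1 fell. CLEC12A and CD86 passed only through the K148R libraries: CLEC12A rose from 0.494 ± 0.132 to 10.1 ± 0.565 CPM and CD86 from 0.441 ± 0.266 to 26.6 ± 1.98 CPM, and IL3RA (CD123) was not called (-0.09).

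Histone genes were mostly higher. Of 59 replication-dependent histone genes 33 passed the filter, and 26 of these passed only through the K148R libraries, which favours a rise. Of those tested 31 rose and 1 fell, and of the 7 that passed in both groups 5 rose and 1 fell. HIST1H2BK measured 7.15, 6.89 and 7.59 CPM in parental and 123, 116 and 127 CPM in K148R libraries (log2 fold change 4.08 ± 0.07 (SE), adjusted p = 7.4e-32), and HIST1H2AC rose from 0.875 ± 0.323 to 15.9 ± 1.7 CPM. The list's summed level went from 27.2 to 269.5 CPM. Most histone messages end in a stem-loop and not a poly(A) tail, so their share of a library also depends on how RNA was selected. Beside them, 26 other RNAs without a tail went from a summed 35.2 to 538 CPM, most of it RN7SK, the RNA through which HEXIM1 inhibits CDK9. Of the 13 tested 6 rose and 1 fell, 4 passed the filter only through the K148R libraries, and of the 8 that passed the filter in both groups 2 rose. Of 87 small nucleolar RNAs 17 rose and 31 fell, with a median of -0.31. SNORD3A rose from 2.31 ± 0.976 to 10.9 ± 2.11 CPM, SCARNA10 from 0.167 ± 0.0206 to 3.71 ± 0.272 CPM, and RN7SL1 and RPPH1 were not called (0.83 and 0.96). The sources used here do not say how RNA was selected, and its part in the histone values was not tested.

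Some genes had no counts in one group. Counting genes with 0 counts in all libraries of one group and at least 1 CPM in every library of the other, 15 were detected in K148R and 20 in parental cells only. Against a floor of 3 counts over the group, SDK2, a cell adhesion protein, was at least 191-fold higher (13.1, 11.3 and 11.7 CPM in K148R libraries), C22orf34 at least 122-fold, FAIM, an inhibitor of apoptosis, at least 87.5-fold and HLF, a transcription factor of blood stem cells, at least 53.3-fold. In the other direction GTSF1, a factor of the piRNA pathway, was at least 984-fold lower (61.7, 58.6 and 57.1 CPM in parental libraries), the zinc finger gene ZNF486 at least 508-fold, the translation termination factor GSPT2 at least 105-fold and NDN, an imprinted gene, at least 78.2-fold.

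Among the largest changes of single genes, IGF1, insulin-like growth factor 1, measured 2.04, 2.51 and 2.25 CPM in parental and 268, 269.8 and 284 CPM in K148R libraries (log2 fold change 6.92 ± 0.08 (SE), adjusted p = 2.3e-37; chromosome 12, 102395874 to 102481839). OLIG2, a neural transcription factor, rose from 0.127 ± 0.0606 to 15.9 ± 0.472 CPM and GFRA2, a co-receptor for neurturin, from 0.143 ± 0.062 to 33.7 ± 4.14 CPM. TEX19, a germ cell gene, measured 131, 132 and 129.7 CPM in parental and 1.23, 1.41 and 1.41 CPM in K148R libraries (log2 fold change -6.60 ± 0.09 (SE), adjusted p = 1.1e-34; chromosome 17, 82359247 to 82363775). ALOX12, the platelet lipoxygenase, fell from 84.8 ± 3.65 to 0.598 ± 0.134 CPM, SYT2, a synaptic vesicle protein, from 107 ± 1.37 to 0.186 ± 0.0806 CPM, and PGM1, phosphoglucomutase, from 18.2 ± 1.41 to 0.11 ± 0.141 CPM. DHRS3, a retinal reductase, was lower by a ratio of 796 (95% interval 142 to 31482) and CD38 by a ratio of 792 (95% interval 142 to 31316), which cover counting error only. By CPM, large gains besides FTL were those of CES1, a carboxylesterase of monocytes, from 80.8 ± 3.94 to 1108 ± 44.2 CPM, CHI3L1, a secreted glycoprotein of macrophages, from 273 ± 1.96 to 1192 ± 11.7 CPM and P4HB, protein disulfide isomerase, from 1614 ± 36 to 3882 ± 65.9 CPM. Large losses were those of TUBB, beta-tubulin, from 2642 ± 48 to 585 ± 9.6 CPM, STMN1, which destabilises microtubules, from 819 ± 3.39 to 83.4 ± 6.48 CPM and TUBA1B, alpha-tubulin, from 1282 ± 24.5 to 554 ± 2.59 CPM.

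Along the chromosomes the changes were mostly scattered, with a few stretches in 1 direction, all picked after their values were seen. The first 60 tested genes of chromosome 10, from ZMYND11 to MLLT10 (130088 to 21743630), had a median log2 fold change of -1.0. Of these 44 fell, 30 of them at least 2-fold, and 8 rose. The other 416 tested genes of chromosome 10 had a median of -0.00, with 167 higher and 167 lower. On chromosome 9, 40 genes from SMC5 to CKS2 (70258978 to 89316703) had a median of 0.81, with 28 higher and 7 lower, against 0.09 for the other 476. DNA was not measured.

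Zinc finger genes of chromosome 19 formed another group. Of 212 tested ones 100 fell, 50 at least 2-fold, and 48 rose, 5 at least 2-fold, with a median of -0.20. The other 785 genes of that chromosome had a median of 0.10, with 366 higher and 280 lower. The 261 zinc finger genes of other chromosomes had a median of -0.00, with 94 higher and 93 lower, and 20 and 33 at 2-fold or more. Many proteins of this family carry a KRAB domain and are known to silence transposable elements. Neighbouring pairs that were near 0 in K148R cells included ZNF502 and ZNF501, and ZNF347 and ZNF665. Pairs near 0 in parental cells included IFI44L and IFI44, S100A9 and S100A8, and HCAR2 and HCAR3.

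**Figure D4:**
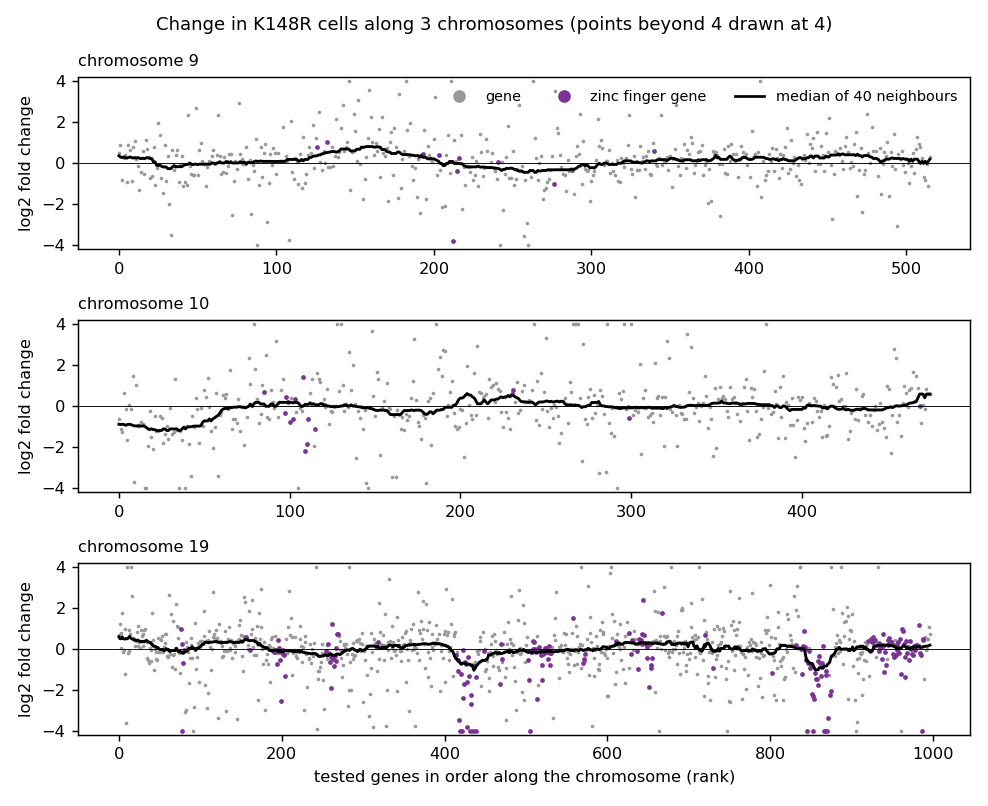
Log2 fold change of tested genes (vertical axis, points beyond 4 drawn at 4) by their order along chromosomes 9, 10 and 19 (horizontal axis, gene rank). Zinc finger genes are purple and the black line is the median of 40 neighbouring genes. The line stays below 0 over the first 60 genes of chromosome 10 and rises over part of chromosome 9.

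Of tested genes with a promoter in the table, those at least 2-fold lower held an E2F element in 9.09% of cases, against 3.18% of those at least 2-fold higher and 4.28% of the rest. For the CHR element these shares were 16.2%, 11.0% and 8.2%, and for CCAAT 40.7%, 36.3% and 36.6%. The E box was at 8.06% of the lower, 10.2% of the higher and 10.8% of the other genes. So the E box, the site of MYC and its relatives, was not more frequent among genes that were at least 2-fold lower or higher than among the rest. The response element of interferon was at 3.41% of the higher, 2.34% of the lower and 2.93% of the other genes. For the AP-1 element (TGAGTCA or TGACTCA) the shares were 3.64%, 2.55% and 2.81%, where all promoters held 4.92%. The PU.1 element (GAGGAAGT) was at 2.73% of the higher, 3.03% of the lower and 2.59% of the other genes.

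**Figure D5:**
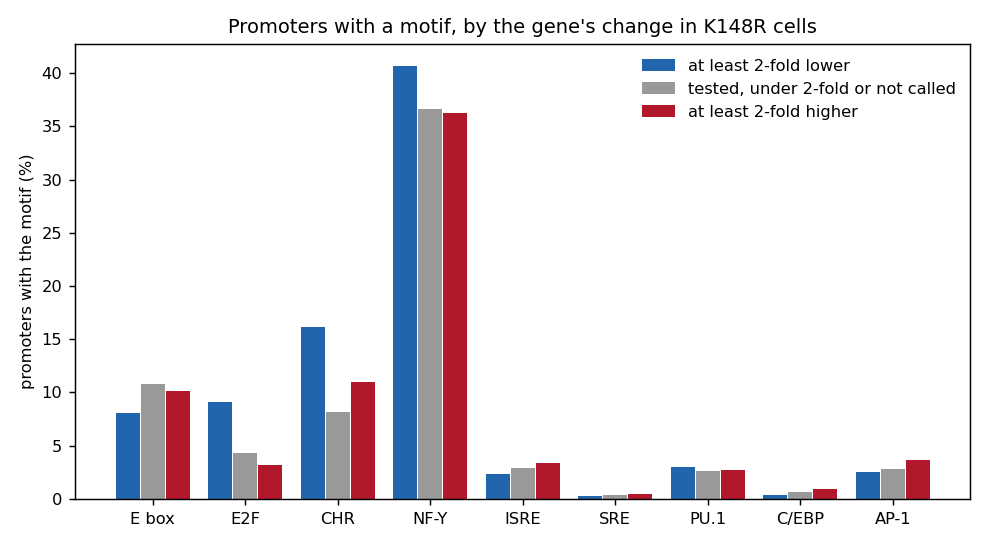
Share of promoters (vertical axis, percent) that hold each of 9 elements, by class of tested gene: at least 2-fold higher, at least 2-fold lower and other. The E2F element is at 9.09% of the lower and 3.18% of the higher genes, whereas the E box is at 8.06% and 10.2%.

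The size of the difference varied with base composition and, in part through the filter, with level. In the tenth of genes with the lowest parental level (up to 1.38 CPM) the median log2 fold change was 1.22, and 54.3% were at least 2-fold higher. A gene of low parental level can pass the filter through the K148R libraries, which favours rises there. Of all tested genes, 649 passed the filter through the K148R libraries alone and 553 through the parental ones alone, which favours falls. Over 12038 genes with a known GC content, Spearman's correlation of the log2 fold change with GC was 0.234, a value across genes that share the same libraries. In 5 equal groups from low to high GC the medians were -0.33, -0.16, 0.07, 0.19 and 0.25. Among the K148R libraries, the deviation from the group mean correlated with GC at 0.45 in replicate 1 and -0.43 in replicate 3, against 0.03 in replicate 2 and -0.04 to 0.06 in parental libraries. GC content thus moved with differences within the K148R group as well as between the groups. Of the 112 genes that the text's rule names and that were not called, 67 were called with a correction for GC content and length, so "not called" does not show that a level was the same.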

How the data were processed

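Total RNA was extracted with a Zymo column kit and sequenced from standard Illumina libraries, per the labels' protocols. The values that the authors deposited are raw counts of reads for each gene symbol, unscaled, in 1 column for every library. Named in the submitters' processing notes are the build GRCh38, featureCounts 1.5.2, HISAT2 2.0.5 and FastQC 0.11.7. The sources used here do not state the annotation, the strand of counting or any poly(A) selection. Reads of near-identical genes (histones, HLA-DRB, ribosomal proteins, ferritin, tubulins) and of overlapping genes cannot be assigned with certainty.

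The 6 columns of parental and K148R cells were used and the 3 of K148Q cells left out. Genes were filtered with filterByExpr by group, which kept 12722 of 26485 symbols, scaled with TMM and tested by edgeR 4.0.16 (robust quasi-likelihood F test) in R 4.3.3, without a replicate term. CPM were computed on TMM-scaled totals. The common biological coefficient of variation was 0.041. On simulated data with 12192 genes, 50 genes each were changed 1.25, 1.5, 2 and 4-fold, far fewer than were called in the data. Of these 56%, 80%, 84% and 96% were recovered, and 4.82% of 166 calls were false. The simulation held no trend with GC content, so these rates may not hold for the data. With 3 against 3 libraries an exact permutation test of a single gene cannot pass the threshold.

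The members and the gene lists were chosen with earlier results of these data known. The text names MYC, the 15 largest rises and falls of genes with at least 10 CPM and no overlap, the 15 largest gains and losses in CPM, and from each list the 4 called members of smallest p, the 4 of largest change and 3 that were not called, or any member of lists of up to 12. Up to 10 genes come from chromosome runs and from genes detected in 1 group, and heads of pathways (such as SREBF2 and STAT2) were named beforehand. A few members outside this rule were chosen after their values were seen: RB1, GUSB, GBP4, MPO, CD14, CD163, FCN1, MRC1 and the lineage markers at 0. A few named items are not reported here. Positions came from RefSeq GRCh38.p14, which matched 12520 tested genes, and 9963 had a promoter in its table. Floors are 3 counts over a group, and ratios have exact 95% intervals.

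Alternatives were DESeq2 1.42.0, limma-voom (limma 3.58.1), other scalings and filters, all 9 libraries, a replicate block and leaving out each library. A correction for GC content and transcript length was added after seeing the data.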

Additional observations from a re-analysis of the deposited data

How the results depend on the processing

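The counts of called genes kept within 1.5 times of those reported under every alternative, and no called gene was called in the opposite direction except under the correction for GC content and length, where 154 of 10174 were and 9108 kept their call. DESeq2 called 9725 genes, limma-voom 10173, library totals alone 10199, all 9 libraries 9649, no filter 10914 of 18122, a filter of 5 CPM 8654 of 10389, and the GC correction 10308. Leaving out each library in turn gave 9853 to 10319 calls, 1865 to 1928 genes at least 2-fold higher and 1913 to 1965 at least 2-fold lower. The share of calls that were higher was 47.6% to 50.4%. The replicate numbers did not pair the libraries: deviations of same-numbered libraries correlated at -0.024, 0.004 and 0.017. A replicate block gave 10136 calls, 10100 of them the same as without it. Of named genes, RPL5 had a log2 fold change of 0.050 with the GC correction (-0.54 without) and TRRAP -0.26 (0.14 without). With the GC correction KAT5, TFEB, CEBPA, MEIS1, KMT2A and XBP1 kept their direction at 0.15, 0.27, 0.40, -0.20, 0.15 and -0.66. Calls of MGA were lost under DESeq2, with all 9 libraries, with the 5 CPM filter and without parental replicate 1 or K148R replicate 1. COL1A2 lost its call under DESeq2, with the replicate block and without K148R replicate 2. The median of the list Fibroblast, epithelial and endothelial markers was 2.32, and -4.34 with the 5 CPM filter, which left fewer members. That filter also left 6 of the 31 histone genes called higher. The number of genes detected in 1 group only was 35, and 42 to 48 without each library in turn. The cause of these changes was not tested.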

Other observations

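Noncoding transcripts changed as well. Of 21 tested transcripts that host small nucleolar RNAs 10 fell and 3 rose, where 40.1% and 39.8% of all genes did. The list's median was -0.14. SNHG6 fell from 179 ± 3.35 to 65.6 ± 4.94 CPM, SNHG1 from 109 ± 2.05 to 48.5 ± 3.19 CPM and SNHG4 from 20.7 ± 1.82 to 4.94 ± 0.797 CPM, whereas GAS5, which accumulates when translation is low, was not called (0.08). MIR17HG, the host of a miRNA cluster that MYC is known to activate, measured 10.9, 10.9 and 9.61 CPM in parental and 2.78, 2.55 and 4.05 CPM in K148R libraries (log2 fold change -1.74 ± 0.16 (SE), adjusted p = 7.4e-12). MIR155HG fell from 20.5 ± 2.28 to 6.56 ± 0.862 CPM. Among nuclear long noncoding RNAs KCNQ1OT1, an imprinted transcript, rose from 1.28 ± 0.18 to 8.63 ± 0.912 CPM and MALAT1 from 28.9 ± 2.81 to 54.7 ± 0.337 CPM.

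Of 17 tested genes of the hypoxia response 9 rose and 7 fell, where 39.8% and 40.1% of all genes did. The list's median was 0.34, or 0.05 with the correction for GC content. EPAS1 (HIF-2alpha) rose from 1.05 ± 0.177 to 11.4 ± 1.36 CPM, while NDRG1 fell from 162 ± 2.13 to 46 ± 3.34 CPM and BNIP3, a mitophagy receptor, from 35.9 ± 1.84 to 12.9 ± 0.533 CPM.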
